A study of Mus musculus and synthetic construct with 15 samples.

Results

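The natriuretic peptide gene cluster on mouse chromosome 4 holds Nppb and Nppa, which encode brain and atrial natriuretic peptide. Regions of a reporter library were assigned to it when the midpoint lay within 100 kb of Nppa or Nppb and no other protein-coding gene body was nearer (RefSeq genes on GRCm38, which is mm10). Of 3820 regions in the library, 2 met this rule. Both were assigned to Nppb, and 0 were assigned to Nppa.

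Heart muscle cells secrete both peptides as hormones. They bind the guanylyl cyclase receptor Npr1, raise cyclic GMP, relax blood vessels and promote the excretion of salt and water. In the healthy adult heart the genes are expressed mainly in the atria, while the ventricles express them during development and again under load.

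The study delivered a pool of candidate enhancers of 400 bp to wild-type mouse pups in adeno-associated virus (AAV9) on postnatal day 0 and collected atria and ventricles on postnatal day 7. This design is a massively parallel reporter assay, in which the RNA made from each region is set against its DNA in the virus. By its title, the study looked for enhancers that favour 1 chamber of the heart. The 15 libraries were 5 of RNA from the atria of wild-type mice given the AAV9 library, 5 of RNA from their ventricles and 5 of DNA of the AAV9 library itself, each group numbered 1 to 5. The labels name cardiomyocytes, but the assay counts reporter transcripts and viral genomes, so no marker gene of a cell type could be read. Nothing in the labels ties each replicate to an animal of its own, so p-values measure only the spread between these libraries, which may be technical. In chamber tissue, fewer cells of a type and less RNA per cell cannot be told apart. Since the DNA is of the AAV9 library itself, the viral DNA of each region within each chamber was not measured.

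Total counts ran from 877773 to 2369985 in atrial RNA, from 1271527 to 3781726 in ventricular RNA and from 2312820 to 2958271 in DNA. The replicate 1 RNA libraries stood apart from the others: they had 0 counts in 765 (atrium) and 700 (ventricle) regions, against 36 to 85 in RNA replicates 2 to 5 and 657 to 731 in DNA. Both Nppb regions were abundant in every library, with at least 156 counts in any of them, and their values are given with and without replicate 1.

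The first member, called the distal Nppb region here (chr4:147969386-147969785), has its midpoint 16.2 kb upstream of the Nppb gene body and 31.1 kb from Nppa. The second, the proximal Nppb region (chr4:147979649-147980048), lies 5.94 kb upstream of Nppb and 20.9 kb from Nppa. Both are intergenic: no RefSeq gene of any type lies in the 38.5 kb between 2510039O18Rik and Nppb. Their identifiers carry the tag GeneAVB, and a deposited class column calls the distal region "MTF or P300" and the proximal region "spMTF or spP300". These class names are used as given.

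The same interval holds another pair of library regions. They lie 22.0 kb (chr4:147963628-147964027, the far intergenic region) and 19.9 kb (chr4:147965712-147966111, the middle intergenic region) upstream of Nppb. The rule gave both to 2510039O18Rik, whose body is 16.5 kb and 18.6 kb away, although the nearest start site in the RefSeq promoter table is that of Nppb. With start sites in place of gene bodies the cluster has 4 regions. A further library region lies inside Mfn2, a GTPase of mitochondrial fusion (chr4:147900405-147900804). No region of the library overlaps the promoter of Nppb or of Nppa, so the promoters themselves were not measured.

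The RefSeq promoters (GRCm38.p6, 250 bases before to 50 after the start, plus strand) are shown as the endogenous start sites nearest to the regions. Capitals mark matches to a fixed set of heart factor motifs on either strand.
Nppb, chr4:147985650-147985949: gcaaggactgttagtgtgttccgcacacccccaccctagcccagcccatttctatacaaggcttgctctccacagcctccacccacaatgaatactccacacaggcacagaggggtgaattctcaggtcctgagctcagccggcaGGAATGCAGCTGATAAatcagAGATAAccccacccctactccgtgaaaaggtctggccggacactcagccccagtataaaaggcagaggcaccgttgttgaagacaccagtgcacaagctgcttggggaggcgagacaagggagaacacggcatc
Nppa, chr4:148000472-148000771: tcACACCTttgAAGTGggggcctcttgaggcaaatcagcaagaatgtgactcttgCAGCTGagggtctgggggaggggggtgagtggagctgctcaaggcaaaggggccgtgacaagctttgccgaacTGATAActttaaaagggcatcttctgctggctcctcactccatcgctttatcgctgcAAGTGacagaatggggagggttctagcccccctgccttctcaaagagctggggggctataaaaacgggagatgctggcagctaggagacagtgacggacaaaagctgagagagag

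In the Nppb promoter a TEAD motif, spelled GGAATG in the search, begins 105 bases before the start. It runs into an E-box (CAGCTG) that begins 99 bases before the start, which in turn shares 2 bases with a GATA motif (TGATAA) at 95 bases. A second GATA motif, of the form AGATAA in the search, begins 84 bases before the start. In the Nppa promoter a T-box motif (AGGTGT) matched on the minus strand 248 bases before the start. The core of NKX2-5 sites, AAGTG, matched there at 239 and 65 bases, the same E-box at 195 bases and the first GATA motif at 122 bases. Of the 32851 promoters in the table, 14.7% held the TEAD motif, 16.3% the E-box, 9.05% the first and 11.2% the second GATA motif, 13.7% the T-box motif and 46.4% the NKX2-5 core.

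Other motifs of the set had no match in either window. These were the MEF2 core TATTTTA, which 5.37% of all promoters held, and its second form, spelled TATTTAT, which 5.60% held. The ERR motif searched as AAGGTCA was in 4.72% of promoters, the AP-1 motif searched as TGAGTCA in 5.20% and the SRF CArG box in 1.63%. These matches describe letters only, and the sequences of the 400 bp regions were not used here.

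The first question was whether the Nppb regions gave different amounts of reporter RNA in the chambers. The distal region was 1.86-fold higher in atrium, while the proximal region was at about equal levels in both chambers. Values are CPM, the counts of a region relative to the library total, scaled by TMM factors, which set the bulk of the regions equal between libraries, on 1 scale for all 15 libraries.

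The distal Nppb region had 1134, 1167, 1230.1, 1236 and 1351 CPM in atrial RNA. It had 669.6, 742, 645, 642 and 637 CPM in ventricular RNA. The lowest atrial library was far above the highest ventricular one, so the groups did not overlap. The means were 1224 ± 83.2 CPM in atrium and 667 ± 43.7 CPM in ventricle (SD, n = 5 each). In edgeR's quasi-likelihood test over the 2601 tested regions (those averaging 10 or more counts in DNA), the log2 atrium over ventricle was 0.89 ± 0.08 (SE), with a 95% interval of 0.72 to 1.06 and an adjusted p of 5.1e-07. Replicate 1 alone gave 0.76 from its CPM, and the fit to replicates 2 to 5 gave 0.93. The value ran from 0.83 to 1.05 over 20 alternative settings and kept its call in each.

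The proximal Nppb region had 162, 195, 182, 218 and 193 CPM in atrial RNA. In ventricular RNA it had 199, 179.6, 157, 186 and 219 CPM. The ranges overlapped almost completely. The means were 189.9 ± 20.2 CPM in atrium and 188 ± 23.2 CPM in ventricle (SD, n = 5 each). The log2 atrium over ventricle was 0.03 ± 0.15 (SE, adjusted p = 0.906). Its 95% interval, -0.28 to 0.35, leaves room for a difference of up to 1.27-fold in favour of atrium, but does not reach the value of the distal region. For the proximal region, replicate 1 alone gave -0.30 from its CPM. The fit to replicates 2 to 5 gave 0.11 and did not pass (adjusted p = 0.662 in edgeR).

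**Figure D1:**
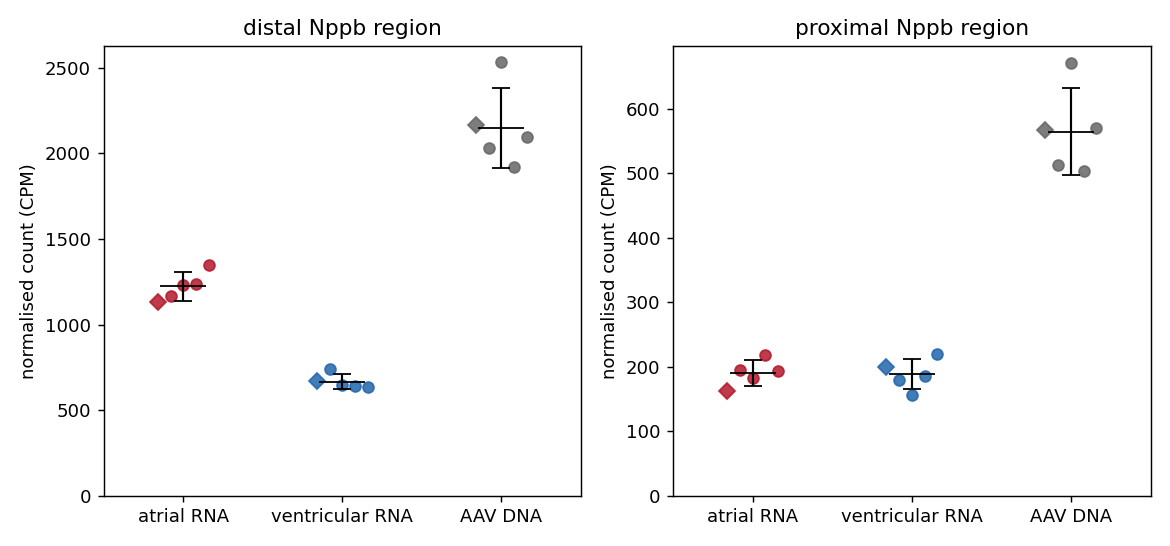
Normalised counts (CPM, linear axes from 0) of the distal and proximal Nppb regions in atrial RNA, ventricular RNA and AAV DNA. Points are libraries (diamonds, replicate 1), the bar and whiskers are mean and SD of 5 libraries. In the distal region the atrial libraries (1134 to 1351) lie above the ventricular ones (637 to 742), and in the proximal region the chambers overlap.

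Against the background, 1 of the 2 Nppb regions passed between chambers, where 30.9% of all tested regions passed in either direction and 15.8% were higher in atrium. The share lower in atrium was 15.1%. The libraries of the chambers did not overlap in 1 of the 2 Nppb regions and in 23.0% of tested regions. Its log2 difference exceeded that of 92.1% of tested regions and of 90.3% of the 1170 tested regions that share its class. The proximal region exceeded 50.4% of tested regions and 51.0% of the 520 of its class. A count of 1 in 2 says nothing particular about the cluster.

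The members were then set against each other inside each library, where the scaling of libraries cancels. The count of the distal region was 6.99, 5.98, 6.76, 5.68 and 7.003 times that of the proximal region in atrial RNA. The ratio was 3.36, 4.13, 4.11, 3.45 and 2.90 in ventricular RNA. In DNA it was 3.83, 3.96, 3.77, 3.81 and 3.68. Atrial libraries stood above all others, and the DNA values lay within the ventricular range. The mean ratios were 6.48 ± 0.610 in atrium, 3.59 ± 0.527 in ventricle and 3.81 ± 0.103 in DNA (SD, n = 5 each). On the log2 scale the ratio was 0.86 higher in atrium than in ventricle, and 0.81 higher without replicate 1. This ratio was chosen after the values were seen and restates the chamber values of both regions without the scaling, so it is a description with no test.

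**Figure D2:**
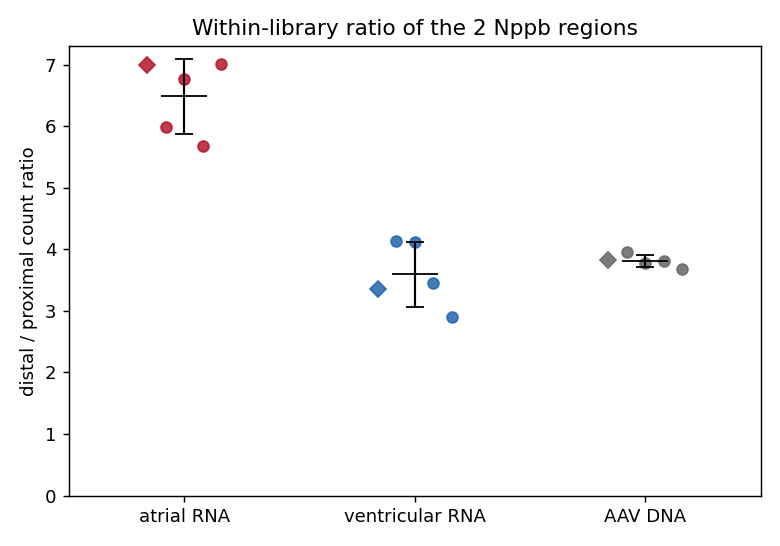
Ratio of the distal to the proximal Nppb region's count within each library (linear axis from 0), by group. Points are libraries (diamonds, replicate 1), the bar and whiskers are mean and SD. Atrial ratios run from 5.68 to 7.003, ventricular ratios from 2.90 to 4.13 and DNA ratios from 3.68 to 3.96.

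The second question was how much RNA the regions gave for their DNA. Both Nppb regions had lower CPM in RNA than in DNA, in both chambers. Both are CPM scaled by TMM factors, so the fold compares a region with the bulk of the regions. It is not a ratio of shares of the library totals and does not say whether the region is active on its own. Scaled by library totals instead, log2 atrium over DNA was -0.43 (distal) and -1.19 (proximal), and log2 ventricle over DNA was -1.31 and -1.20. The distal region stood at 2167, 2032, 2533, 1919 and 2095 CPM in DNA, with a mean of 2149 ± 233 CPM (SD, n = 5). All of its RNA libraries were below all of its DNA libraries. Its RNA over DNA was 1.88-fold lower in atrium (log2 -0.91 ± 0.08, SE, adjusted p = 1.1e-07) and 3.22-fold lower in ventricle (log2 -1.69 ± 0.09, adjusted p = 1.4e-11).

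The proximal region had 566, 513, 672, 503 and 569.8 CPM in DNA, a mean of 565 ± 67.1 CPM (SD, n = 5), again above all of its RNA libraries. Its RNA over DNA was 3.18-fold lower in atrium (log2 -1.67 ± 0.10, adjusted p = 4.3e-09) and 3.003-fold lower in ventricle (log2 -1.59 ± 0.11, adjusted p = 4.9e-10). In ventricle, therefore, the members had similar ratios, and in atrium the distal region had the higher one. The 2 comparisons against DNA share the DNA libraries.

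Both members thus passed against DNA in both chambers, as did 74.7% of tested regions in atrium (36.3% lower) and 81.2% in ventricle (37.8% lower). RNA and DNA libraries did not overlap in either member, nor in 60.4% of tested regions in atrium and 70.0% in ventricle. The median log2 over all tested regions was 0.04 in atrium and 0.13 in ventricle. For the 1177 regions averaging 300 or more DNA counts, as both members do (4568 and 1199.8), the medians were -0.66 in atrium and -0.69 in ventricle. Among those regions, the distal region exceeded 40.1% in atrium and 15.3% in ventricle. The proximal region exceeded 11.4% in atrium and 17.8% in ventricle. In replicate 1 the log2 RNA over DNA from CPM was -0.92 and -1.80 in atrium and -1.68 and -1.50 in ventricle (distal and proximal). In the fit to replicates 2 to 5 it was -0.90 and -1.63 in atrium and -1.77 and -1.68 in ventricle. That fit had TMM factors of its own, so its values are not on the scale of the replicate 1 values. From CPM, replicates 2 to 5 in atrium ran from -0.88 to -0.67 (distal) and from -1.63 to -1.38 (proximal). In ventricle they ran from -1.76 to -1.53 and from -1.85 to -1.36.

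Of the neighbouring intergenic regions that the start-site rule adds to the cluster, both were higher in atrium, the middle one by a small margin. The far intergenic region had 689.5, 538, 738, 684 and 936 CPM in atrium. It had 225, 287, 254, 313 and 370.3 CPM in ventricle, with no overlap between the chambers. It was 2.497-fold higher in atrium, at 717 ± 143 CPM against 289.8 ± 56.0 CPM in ventricle (SD, n = 5 each; log2 1.32 ± 0.16, SE, adjusted p = 1.3e-05), above 97.8% of tested regions. Its RNA was 2.61-fold lower than DNA in ventricle (log2 -1.38 ± 0.11, adjusted p = 8.0e-09). In atrium it did not pass against DNA (log2 -0.18 ± 0.12, adjusted p = 0.181), and the call depended on the setting. Scaling by library totals turned the value to 0.29 and made it pass as higher than DNA (adjusted p = 0.0364), while it passed as lower than DNA without a filter (-0.32, adjusted p = 0.0424) and without atrial replicate 5 (-0.29, adjusted p = 0.0159).

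The middle intergenic region, 1.69 kb from the far one, averaged 3984 ± 403 CPM in DNA (SD, n = 5), more than the other 4 regions described here. It had 1432, 1462, 1359, 1485 and 1403 CPM in atrium and 1477, 1236, 1038, 1061 and 1039.8 CPM in ventricle. The ventricular replicate 1 library lay inside the atrial range and the other ventricular libraries below it. Its log2 atrium over ventricle was 0.31 ± 0.10 (SE, adjusted p = 0.0227), with -0.04 in replicate 1 and 0.41 in replicates 2 to 5. The call was lost with a DNA minimum of 100 (adjusted p = 0.0561), with an RNA minimum of 10 in place of the DNA minimum (0.0695), without atrial replicate 4 (adjusted p = 0.0637) and without ventricular replicate 2, 3, 4 or 5 (0.0516, 0.0985, 0.0921 and 0.0653), and the adjusted p ranged from 0.00136 to 0.0985 over 20 alternatives. Its RNA was 2.99-fold lower than DNA in atrium and 3.41-fold lower in ventricle (log2 -1.58 ± 0.07 and -1.77 ± 0.11).

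Read along the chromosome, the chamber difference changed between regions only a few kilobases apart. From the far to the proximal region the log2 atrium over ventricle was 1.32, 0.31, 0.89 and 0.03, across gaps of 1.69, 3.27 and 9.86 kb. These regions share no bases. The far and distal regions' 95% intervals were 0.99 to 1.65 and 0.72 to 1.06 and overlapped, and that difference was not tested.

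**Figure D3:**
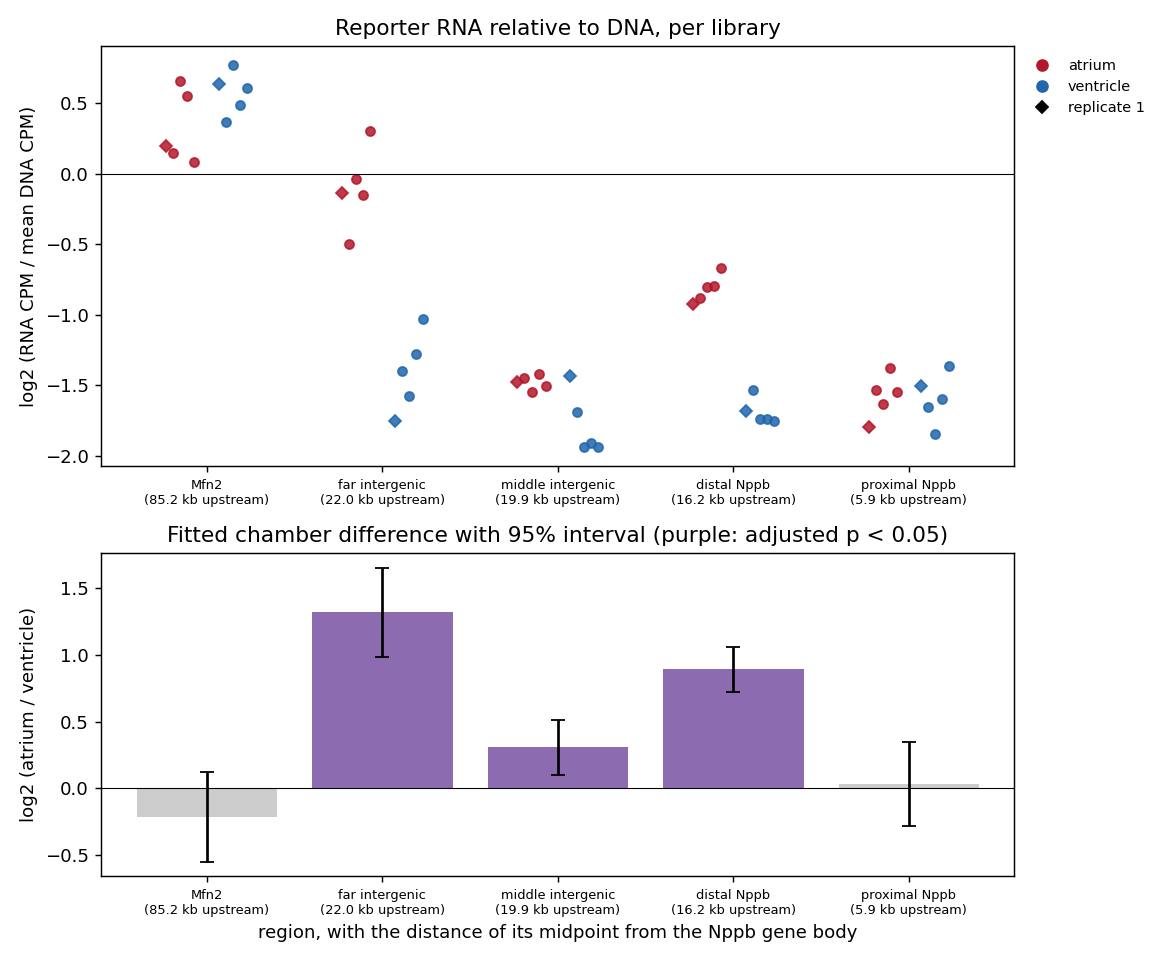
Upper panel, log2 of RNA CPM over the mean DNA CPM in each library (red, atrium; blue, ventricle; diamonds, replicate 1) for 5 library regions from Mfn2 to Nppb, in chromosomal order. Lower panel, fitted log2 atrium over ventricle with its 95% interval, purple where adjusted p was under 0.05. The far and distal regions are higher in atrium (1.32 and 0.89) and the proximal region is near 0 (0.03).

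The Mfn2 region did not pass between chambers, at 187 ± 34.6 CPM in atrium and 219.8 ± 23.2 CPM in ventricle (SD, n = 5 each; log2 -0.22 ± 0.16, SE, adjusted p = 0.348).

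**Figure D4:**
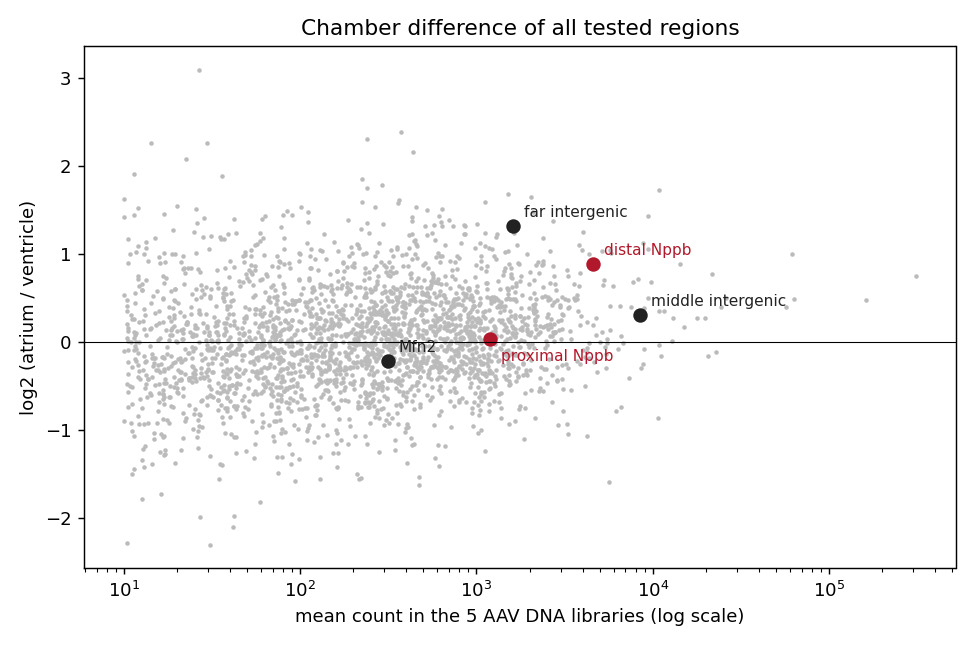
Log2 atrium over ventricle (fitted) against the mean count in the 5 DNA libraries (log axis) for the 2601 tested regions. Red points are the 2 Nppb regions and black points the other 3 regions from Mfn2 to Nppb. The distal Nppb and far intergenic regions lie at 0.89 and 1.32, towards the upper edge of the cloud, and the proximal Nppb region lies in its middle.

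The library held few regions near other genes of the natriuretic peptide pathway. Of 15 listed genes 7 had an assigned region, 15 regions in all, of which 10 passed the filter on DNA counts. The receptors Npr1, Npr2 and Npr3 and the processing enzyme Furin had none. Between chambers 0 of the 10 tested regions were higher in atrium, 1 was lower and 9 did not pass, where 15.8% of all tested regions were higher and 15.1% lower, with a median log2 of -0.01 against 0.03 over all tested regions.

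The region that was lower in atrium lies 18.6 kb from Nppc, the gene of C-type natriuretic peptide (chr1:86647508-86647907). It had 107 ± 22.0 CPM in atrium and 171 ± 12.1 CPM in ventricle (SD, n = 5 each; log2 -0.67 ± 0.17, SE, adjusted p = 0.00688), and its deposited class is Neg, which the regions described above do not carry. Corin encodes the cardiac protease that cleaves the precursor of atrial natriuretic peptide. It had 8 regions inside the gene. The 5 tested ones had log2 atrium over ventricle values from -0.67 to 0.55, and 0 passed (lowest adjusted p = 0.0577). A region inside Pde2a, a phosphodiesterase that degrades cyclic GMP, had -0.10 ± 0.13 (adjusted p = 0.627). Regions inside Pde9a, another cyclic GMP phosphodiesterase, and Prkg1, the cyclic GMP-dependent protein kinase, had 0.82 ± 0.80 and -0.85 ± 0.72 and did not pass.

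Against DNA, 4 of the 10 pathway regions were higher in atrium and 2 lower, and in ventricle 6 were higher and 0 lower (999 and 945 of 2601, or 38.4% and 36.3%, and 1129 and 983, or 43.4% and 37.8%, over all tested regions). The Pde2a region was higher than DNA in both chambers (log2 0.61 ± 0.15 in atrium and 0.83 ± 0.12 in ventricle). The Nppb regions were lower than DNA in both. They averaged 4568 and 1199.8 DNA counts, while a Corin region averaged 1278 and the other tested pathway regions at most 430. Tested regions with 300 or more DNA counts had median log2 values of -0.66 in atrium and -0.69 in ventricle. The Corin region with 1278 DNA counts, near the count of the proximal Nppb region, was at log2 -0.12 ± 0.12 in atrium and -0.13 ± 0.08 in ventricle over DNA. It passed in neither (adjusted p = 0.381 and 0.161 in edgeR). Apart from that Corin region, the contrast with the pathway regions is not between regions of like DNA counts.

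Over the 10 RNA libraries, the region outside the cluster whose log2 CPM followed the distal Nppb region most closely was a region 63.8 kb from Ptpn1, a tyrosine phosphatase (chr2:167866767-167867166), with Pearson's r = 0.985. It was higher in atrium too (log2 0.57 ± 0.07, adjusted p = 2.7e-05). In all, 82 regions had r above 0.9. The proximal region was followed most closely by a region inside Adamtsl2, a secreted matrix protein (chr2:27083918-27084317), with r = 0.864 and a log2 atrium over ventricle of 0.19 ± 0.16 (adjusted p = 0.414). For the proximal region 0 regions had r above 0.9. Each named region was picked for the highest r among all tested regions outside the cluster, so its r is high by selection. The r values are descriptions over libraries that share a chamber and a replicate number.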

How the data were processed

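The deposited table holds counts per region for 15 libraries, which the authors made by trimming with cutadapt 2.5 and aligning with Bowtie2 2.3.4.3 to mm10, per the submitters' processing notes. Whether the counts are of reads or of collapsed molecular identifiers is not stated in those sources. They were used as deposited. Regions averaging 10 or more counts in DNA (2601 of 3820) entered edgeR 4.0.16 quasi-likelihood fits (R 4.3.3) for atrium over ventricle, atrium over DNA and ventricle over DNA, each with TMM factors of its 10 libraries and Benjamini-Hochberg adjustment over all tested regions (threshold 0.05). The printed CPM use TMM factors over all 15 libraries. SEs were derived from the log2 fold and F.

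The named regions were the members, other regions from Mfn2 to Nppa, and regions of listed genes. A result near the cluster is not reported here, and neither are the counts over a list of neighbouring genes. The members and lists were chosen with earlier results of these data known. In no pair of replicates did counts agree within sampling noise (lowest chi-square per degree of freedom 17.7 in atrium, 12.7 in ventricle and 1.79 in DNA), so all 15 were kept. The replicate 1 libraries of atrium and ventricle deviated together (r = 0.819), which comes from the data and not from the labels. The other same-numbered pairs had r from 0.225 to 0.241, and among replicates 2 to 5 alone r was -0.03 to 0.04. Alternatives were DESeq2 1.42.0, voom in limma 3.58.1, other scalings and filters, a replicate block and leaving out each replicate. The fits were run on simulated counts in which far fewer regions changed than were called here, so that run does not test the scaling between RNA and DNA. Region sequences were not used here.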

Additional observations from a re-analysis of the deposited data

Results flagged for a closer look

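The distal Nppb region's RNA level differed between the chambers, with a log2 atrium over ventricle of 0.89 in edgeR's quasi-likelihood test (adjusted p = 5.1e-07). Its atrial and ventricular libraries did not overlap, as in 23.0% of tested regions. By Dixon's test (critical value 0.71 for 5 libraries), 0 of the 15 sets of 5 libraries of the regions from Mfn2 to Nppb held an outlying library. With 5 libraries this test finds only a library very far from the others, so a lesser outlier could be missed.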

How the results depend on the processing

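Under 20 alternatives between chambers and 19 against DNA, both Nppb regions kept their side of the threshold. The distal region ran from 0.83 to 1.05 for atrium over ventricle (log2), from -1.05 to -0.43 for atrium over DNA and from -1.92 to -1.29 for ventricle over DNA. The proximal region ran from -0.04 to 0.19, from -1.81 to -1.19 and from -1.82 to -1.19. Its chamber value turned to -0.027 with a DNA minimum of 100, to -0.028 without atrium replicate 4 and to -0.041 without ventricle replicate 3 (-0.041 to 0.097 with any 1 replicate left out). Far intergenic atrium over DNA turned to 0.29 with library totals, 0.22 with scaling on the class Neg regions and 0.24 with a DNA minimum of 100. The causes were not tested. With the start-site rule the members numbered 4. Calls for atrium over DNA went to 2952 without a filter (3811 regions fitted) and 1280 with the DNA minimum of 100, and those for ventricle over DNA to 3171 without a filter, as the number of regions tested changed. Leaving out each replicate gave 667 to 805 calls between chambers, 1827 to 1974 for atrium over DNA and 2034 to 2140 for ventricle over DNA. The chamber difference in the log2 ratio of the members was 0.81 without replicate 1.

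With the replicate block, calls were 869 between chambers, 1886 for atrium over DNA and 2078 for ventricle over DNA, and 15 of 15 values of the regions from Mfn2 to Nppb kept direction and call. Scaling on the class Neg regions shifted the median chamber value by 0.16 relative to TMM, with 578 regions higher and 226 lower in atrium, against 412 and 392 with TMM. Library totals shifted the median for atrium over DNA by 0.48 (1312 higher, 600 lower, against 999 and 945) and that for ventricle over DNA by 0.37 (1371 and 732, against 1129 and 983), and the class Neg regions shifted them by 0.40 (1264 and 644) and 0.16 (1215 and 852).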

Other observations

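Regions near other genes of the chambers and near heart transcription factors were described from fixed lists. Of 21 tested regions assigned to 9 genes expressed mainly in atria, 9 were higher in atrium, 1 was lower and 11 did not pass (15.8% of all tested regions were higher and 15.1% lower), with a median log2 of 0.63 against 0.03 over all tested regions. A region of Myl7, the atrial myosin light chain, stood at 2.39 ± 0.20 and one of Kcnj5, a potassium channel, at 1.25 ± 0.11. A region of Nr2f2, a nuclear receptor of atrial identity, was lower in atrium, at -0.77 ± 0.08. Of 20 tested regions assigned to 8 genes expressed mainly in ventricles, 2 were higher in atrium, 7 were lower and 11 did not pass (against the same 15.8% and 15.1%), with a median of -0.01. Regions of Irx4, a ventricular homeobox factor, were at -1.33 ± 0.12 and -1.01 ± 0.10, and one of Myh7, the slow myosin heavy chain, at -1.50 ± 0.12 (log2 atrium over ventricle ± SE). A region of Kcnd2, a potassium channel of the same list, went the other way, at 1.45 ± 0.16.

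Of 17 tested regions near 7 transcription factors of the heart, 3 were higher in atrium, 3 were lower and 11 did not pass, a share each way near the 15.8% and 15.1% of all tested regions. A region of Tbx5, a T-box factor, was 3.70-fold higher in atrium (log2 1.89 ± 0.18). The gene's other tested regions were at 0.02 and 0.10 and did not pass. A region 96.1 kb from Myocd, a cofactor of SRF, was at 1.002 ± 0.18, and one inside Tead1 was at 0.63 ± 0.14. Another Myocd region, inside the gene, was lower in atrium (-0.29 ± 0.10, adjusted p = 0.0403 in edgeR), and the remaining Myocd regions did not pass. Another Tead1 region was at -0.36 ± 0.13 and did not pass. Lower in atrium too were a region inside Zfpm2 (-0.82 ± 0.23) and one 59.5 kb from Gata6, a zinc finger factor (-0.41 ± 0.11). The other tested Zfpm2 region was at 0.10 ± 0.33 and did not pass. The Gata6 call was lost with scaling on the class Neg regions.

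Further along chromosome 4, a region inside Fbxo2, a ubiquitin ligase subunit (chr4:148164012-148164411), had 46.0 ± 37.9 CPM in atrium and 9.28 ± 4.60 CPM in ventricle (SD, n = 5 each; log2 2.31 ± 0.60, SE, adjusted p = 0.00906 in edgeR), and it did not pass with voom (adjusted p = 0.0770).

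The cluster is represented by 2 regions upstream of Nppb and by none assigned to Nppa, and the regions were measured in AAV away from their native place. Assignment to a gene rests on distance alone. At least 156 counts per library lie behind each value of the Nppb regions.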
